A study of Homo sapiens and Mus musculus with 16 samples.

Results

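The neuronal cytoskeleton and growth genes described here are 10 human genes that were looked up by symbol: DCX, MAP2, TUBB3, STMN2, NCAM1, MAPT, GAP43, NEFL, NEFM and MAP1B. All 10 were found among the 22286 genes of the human count table, and all 10 had counts in each of the 12 human libraries. The libraries came from sorted P-bodies and from the cytoplasm they were sorted out of, with 2 libraries per fraction in day 20 neurons, liver bud progenitors and HEK293T cells, a transformed human embryonic kidney line. Neurons and liver bud progenitors were derived from UCLA4 human embryonic stem cells that carried GFP-LSM14A at the AAVS1 locus, and HEK293T cells received GFP-LSM14A by lentivirus under an EF1a promoter. LSM14A is a P-body protein, so that every cell compared, the cytoplasm samples included, expressed the tagged protein. Cytoplasm was the resuspended pellet of the lysate after removal of nuclei, and P-bodies were sorted from it. The neuron and liver bud progenitor libraries are labelled polyA RNA and the HEK293T libraries total RNA, and the kits differed in the same way, so that kit and cell type cannot be told apart in any comparison with HEK293T.

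P-bodies are cytoplasmic condensates of messenger RNA and of proteins that repress translation and remove the cap of mRNAs, and transcripts held there are in general poorly translated. The axon and dendrites of a neuron are built on microtubules, hollow polymers of alpha- and beta-tubulin that are stabilised by microtubule-associated proteins, and on neurofilaments, the intermediate filaments of neurons. Newly born neurons make large amounts of these proteins while their processes grow, which is why several of these genes serve as markers of neuronal identity. DCX (doublecortin) binds microtubules in migrating neurons, MAP2 is concentrated in dendrites, MAPT (tau) in axons, and MAP1B is an early microtubule-associated protein of growing axons. TUBB3 is a beta-tubulin of neurons, and STMN2 binds tubulin dimers and regulates microtubule growth. NEFL and NEFM are the light and medium neurofilament subunits. GAP43 is a membrane-bound protein of the growth cone, and NCAM1 is a neural cell adhesion molecule of the immunoglobulin family.

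The coding sequences differ widely in base composition, which across all genes moved with P-body enrichment (below). The start of 3 coding sequences is shown, over the first 40 codons of the MANE Select transcript (120 bases, GENCODE 44, hg38), to contrast the genes with the highest and lowest shares of G or C at the last base of the codon, counted over the whole coding sequence, with a gene between them. Capitals mark G or C at the last base of a codon (the wobble base), which was found in 36 of the 40 codons of TUBB3, 30 of MAPT and 13 of MAP2.
TUBB3: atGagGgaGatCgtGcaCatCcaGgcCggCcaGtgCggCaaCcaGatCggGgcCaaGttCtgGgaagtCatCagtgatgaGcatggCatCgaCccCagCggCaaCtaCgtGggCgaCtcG
MAPT: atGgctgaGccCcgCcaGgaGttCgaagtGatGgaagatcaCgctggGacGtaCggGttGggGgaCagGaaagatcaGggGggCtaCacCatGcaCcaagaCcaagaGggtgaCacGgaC
MAP2: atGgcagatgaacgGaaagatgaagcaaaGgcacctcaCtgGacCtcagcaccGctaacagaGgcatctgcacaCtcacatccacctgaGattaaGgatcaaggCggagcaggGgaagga
Over the whole coding sequence the share of G or C at wobble bases was 91.1% in TUBB3, 65% in MAPT and 39.2% in MAP2. Compared with the 13062 genes that averaged 1 CPM (counts scaled to a common library total) or more in neurons and had a MANE Select coding sequence, where the median was 58.8%, TUBB3 was at percentile 99.2 and MAP2 at percentile 15.5.

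In hg38 with GENCODE 44 annotation the genes are spread over 8 chromosomes. The microtubule-associated genes are MAP1B at chr5:72107234-72209565 (+), MAP2 at chr2:209424047-209734147 (+), MAPT at chr17:45894527-46028334 (+) and DCX at chrX:111293779-111412429 (-). TUBB3 is at chr16:89921392-89938761 (+), NCAM1 at chr11:112961275-113278436 (+) and GAP43 at chr3:115623510-115721490 (+). The other genes, on chromosome 8, are NEFM at chr8:24913758-24919098 (+) and NEFL at chr8:24950955-24956721 (-), which are neighbours, and STMN2 at chr8:79611117-79666158 (+). NCAM1 overlaps the antisense gene NCAM1-AS1, and MAPT overlaps MAPT-AS1 and MAPT-IT1, which are listed separately in the table. Whether counting used strand is not given for these columns, so reads from these overlaps may be uncertain.

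Total counts were between 6368953 and 17972284 per library, so that 3 counts, taken as the floor of detection, stood for 0.167 to 0.471 CPM. The Spearman rho between replicates over genes was 0.962 to 0.969, except for neuron P-bodies with 0.915. All 8 neuron markers checked averaged more than 1 CPM in both neuron fractions. They summed to 736 to 771 CPM in cytoplasm and 847 to 866 CPM in P-bodies. ELAVL3 alone was at 420 and 414 CPM in neuron cytoplasm. There, 7 astrocyte and oligodendrocyte markers summed to 13.2 to 19.7 CPM, with OLIG2 and SOX10 at 0. GFAP was the highest of them, at 7.76 and 8.7 CPM. That was above the neuron markers RBFOX3 and GAD1 and below the others. A list of 7 neural progenitor markers summed to 1580 to 1680 CPM in neuron cytoplasm and 3510 to 3690 CPM in neuron P-bodies. Most of it came from the cell cycle genes MKI67, at 997 and 1090 CPM in neuron cytoplasm, and TOP2A. The list was higher in the cytoplasm of liver bud progenitors, at 2820 to 2860 CPM, and of HEK293T, at 2280 to 2350 CPM. Against liver bud progenitors PAX6 went the other way, at 77.6 and 89.9 CPM in neuron cytoplasm and 5.18 and 4.97 CPM in theirs. It was at 143 and 167 CPM in HEK293T cytoplasm and at 413 and 432 CPM in neuron P-bodies. NOTCH1 and HES5 were likewise higher in neuron than in liver bud progenitor cytoplasm, and HES1 overlapped. SOX2 was lower in neuron cytoplasm, at 66.4 and 61.7 CPM against 79.1 and 83.7 CPM. In liver bud progenitors 9 liver bud and endoderm markers summed to 492 to 509 CPM in cytoplasm and 189 to 206 CPM in P-bodies, with AFP, a fetal liver protein, at 8.16 and 7.92 CPM in cytoplasm, while 5 pluripotency markers summed to 1110 CPM in both cytoplasm libraries and 1190 to 1210 CPM in P-bodies, with LIN28A at 657 and 658 CPM in cytoplasm. Their part in the results below was not tested. The study calls its replicates biologically independent, and the labels do not say whether they came from separate cultures, so that p-values measure the spread between these libraries.

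The genes described were first compared in level between cell types. Together they made up 4.09% and 4.38% of all counts in the neuron cytoplasm libraries and 3.08% and 3.13% in the neuron P-body libraries. In liver bud progenitors the share was 0.356% and 0.353% in cytoplasm and 0.227% and 0.229% in P-bodies, and in HEK293T it lay between 0.0519% and 0.0558% in all 4 libraries. All counts include ribosomal RNA, which took 16.6% and 15.9% in HEK293T cytoplasm but 4.75% and 4.32% in HEK293T P-bodies. In neurons it took 24.9% and 21.5% in cytoplasm and 13.4% and 11.4% in P-bodies. Without it the summed level in HEK293T was 561 CPM in P-bodies and 645 CPM in cytoplasm, and in neurons 35500 and 55100 CPM. MAP1B alone took 64.9% and 65.5% of the summed counts in neuron cytoplasm. Without MAP1B, the summed level was 14700 ± 537 CPM (SD, n = 2) in neuron cytoplasm and 13000 ± 14.7 CPM in neuron P-bodies. In bulk samples, fewer cells of a type and less RNA per cell cannot be told apart.

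**Figure D1:**
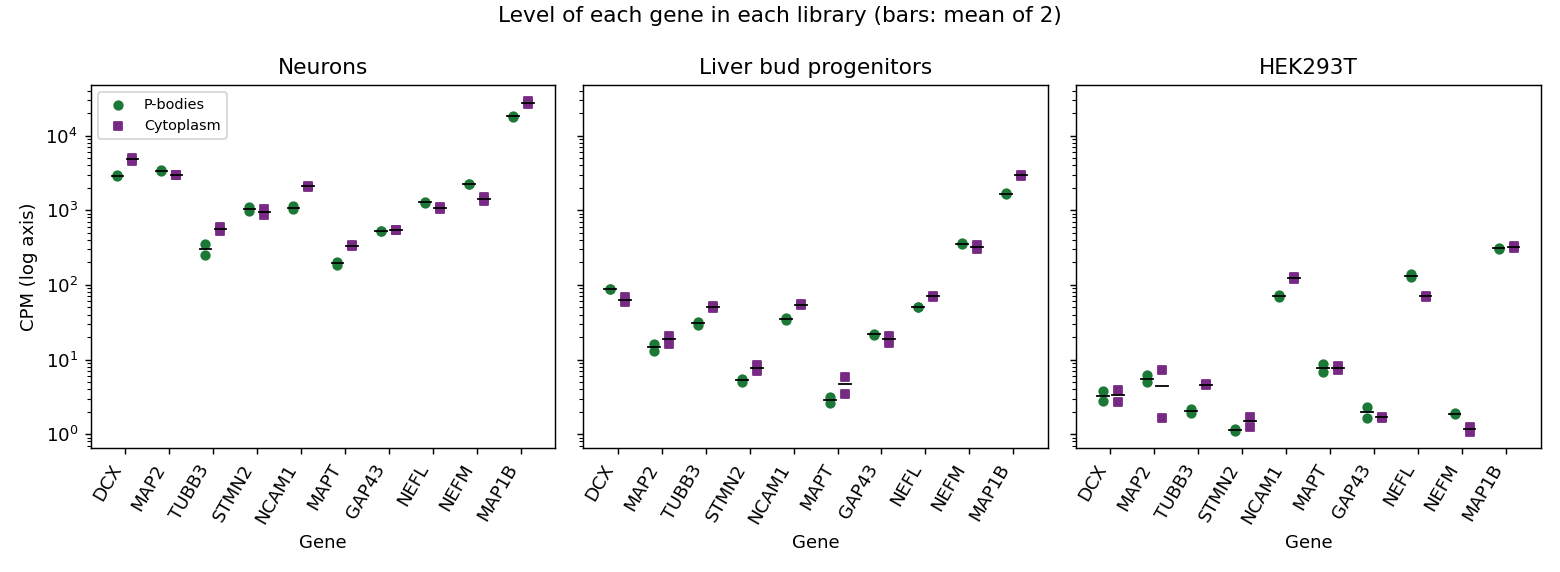
Level of each of the 10 genes in every human library, in CPM on a log axis, with P-bodies as circles, cytoplasm as squares and bars at the mean of 2 libraries. MAP1B is highest in neurons at 26500 and 28700 CPM in cytoplasm, and all 10 genes sit higher in neurons than in either other cell type.

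Per length of the longest transcript, MAP1B was also first in neuron cytoplasm, at 2340 ± 130 CPM per kb (SD, n = 2). DCX followed at 511, STMN2 at 501 and NEFM at 437 CPM per kb, and neighbours in this order had overlapping libraries. NCAM1 stood at 361, NEFL at 296, MAP2 at 294 and GAP43 at 288 CPM per kb, and the libraries of NEFL overlapped those of MAP2 and of GAP43. TUBB3, at 110, and MAPT, at 49.4 CPM per kb, were lowest, a span of 47.4 times from MAP1B to MAPT. The place of TUBB3 depended on the length used, since the longest annotated transcript has 5062 bases and the MANE Select transcript 1706, and with the latter TUBB3 reached 327 CPM per kb, above MAP2 and NEFL. In neuron P-bodies the order changed below MAP1B. NEFM followed at 690 and STMN2 at 548 CPM per kb, while DCX came after NEFL and MAP2 at 310, and no neighbours in that order overlapped.

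All 10 genes were higher in neurons than in liver bud progenitors in both fractions by the edgeR test. Among all genes 26% were called higher and 25.8% lower in neuron cytoplasm, and 18.4% higher and 22.7% lower in neuron P-bodies. In cytoplasm MAP2 had the largest difference, 7.68 on the log2 scale (SE 0.1, adjusted p = 1.04e-66), from 16.2 and 20.9 CPM in liver bud progenitors to 2940 CPM in both neuron libraries. STMN2 differed by 7.34, DCX by 6.63 and MAPT by 6.58. Differences were smallest for NEFM, at 2.53 (SE 0.08, adjusted p = 1.94e-43), since liver bud progenitor cytoplasm already held 301 and 345 CPM of NEFM, and for MAP1B at 3.62. In P-bodies the log2 difference was again largest for MAP2, at 7.71 (SE 0.11, adjusted p = 1.83e-10), and smallest for NEFM, at 2.52. DCX differed by 4.9 (SE 0.07) in P-bodies. The genes were chosen as neuronal genes, so that this direction is a check of the labels.

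**Figure D2:**
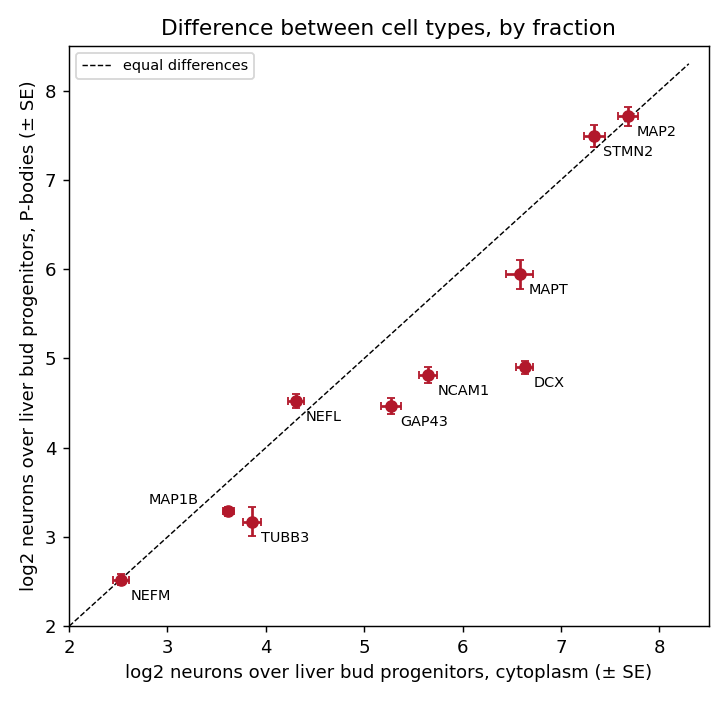
Log2 difference between neurons and liver bud progenitors for each gene in cytoplasm (horizontal axis) and in P-bodies (vertical axis), with SE bars of 2 against 2 libraries and a dashed line of equal differences. DCX lies farthest from the line, at 6.63 in cytoplasm and 4.9 in P-bodies, while MAP2, STMN2 and NEFM lie close to it.

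The main question was how the relative levels of these abundant transcripts differed between P-bodies and cytoplasm in neurons. Depleted and enriched mean a lower or higher relative level in P-bodies than in the cytoplasm they were sorted from. The share of a transcript's molecules held in P-bodies was not measured. Of the 10 genes, 5 were depleted from P-bodies, 1 was enriched and 4 were not called. Over all 22093 genes tested, 14.1% were depleted and 14.6% enriched, with a median log2 change of 0.19, against -0.49 for the 10 genes. All 10 were abundant in neurons, and of the 6100 genes with a mean of 20 CPM or more 37.1% were depleted and 31.4% enriched, with a median of -0.15. The count of 5 among 10 is closer to the share at this level than to that of all genes. With library size only in place of TMM, the median of all genes moved by 0.17 and the calls from 3220 higher and 3123 lower to 3839 higher and 2356 lower. The fold changes are fitted after TMM scaling, which sets the libraries against each other by the bulk of genes, so that they differ somewhat from the ratio of the CPM values. For 9 of the 10 genes the CPM ranges of both fractions were apart, against 64.4% of all genes tested, and this count is therefore not read further.

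Of the 4 microtubule-associated genes, 3 were depleted. MAP1B stood at 17800 and 18300 CPM in P-bodies and at 26500 and 28700 CPM in cytoplasm. Both P-body libraries were lower, a log2 change of -0.78 (SE 0.05, adjusted p = 2.06e-07). DCX was at 2850 and 2990 CPM in P-bodies and at 4600 and 5000 CPM in cytoplasm, a log2 change of -0.88 (SE 0.06, adjusted p = 3.9e-07). MAPT had 186 and 205 CPM in P-bodies and 328 and 345 CPM in cytoplasm. The groups were apart, with a log2 change of -0.95 (SE 0.1, adjusted p = 7.94e-06). MAP2, the dendritic member, had 3370 and 3430 CPM in P-bodies and 2940 CPM in both cytoplasm libraries. After TMM scaling its log2 change was 0.05 (95% interval -0.1 to 0.19, adjusted p = 0.634), so that MAP2 was not called, and a change as large as that of MAP1B lay outside its interval.

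Of TUBB3, a tubulin, and STMN2, which binds tubulin, only TUBB3 was called. TUBB3 stood at 253 and 353 CPM in P-bodies and at 526 and 589 CPM in cytoplasm. Relative to the mean, its P-body libraries were the most spread of the 10 genes, with an SD of 23.4% of the mean, and the log2 change was -1.05 (SE 0.14, adjusted p = 7.01e-05). It was -1.32 without the first P-body library and -0.81 without the second, and was called in both. STMN2, which binds tubulin rather than forming microtubules, had 983 and 1100 CPM in P-bodies and 872 and 1040 CPM in cytoplasm. These values overlapped, and the log2 change was -0.03 (95% interval -0.22 to 0.15, adjusted p = 0.794).

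The neurofilament genes included the only enriched member. NEFM had 2240 and 2270 CPM in P-bodies and 1350 and 1510 CPM in cytoplasm, a log2 change of 0.5 (SE 0.07, adjusted p = 0.000106). NEFL had 1260 and 1290 CPM in P-bodies and 1030 and 1090 CPM in cytoplasm. Both P-body values were higher in CPM, but with TMM scaling the log2 change was 0.1 (95% interval -0.05 to 0.26, adjusted p = 0.295). NEFL was called enriched with library size only, at 0.27, and with a filter on low counts, at 0.21.

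NCAM1, the adhesion molecule, was depleted. It stood at 1030 and 1130 CPM in P-bodies and at 2080 and 2120 CPM in cytoplasm, a log2 change of -1.12 (SE 0.07, adjusted p = 1.94e-07). GAP43 had 529 and 535 CPM in P-bodies and 543 and 551 CPM in cytoplasm. The libraries did not overlap but lay close together, and the log2 change of -0.2 (SE 0.08, adjusted p = 0.0661) missed the threshold. GAP43 was called depleted in 5 of 13 alternatives, at -0.2 to -0.32.

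**Figure D3:**
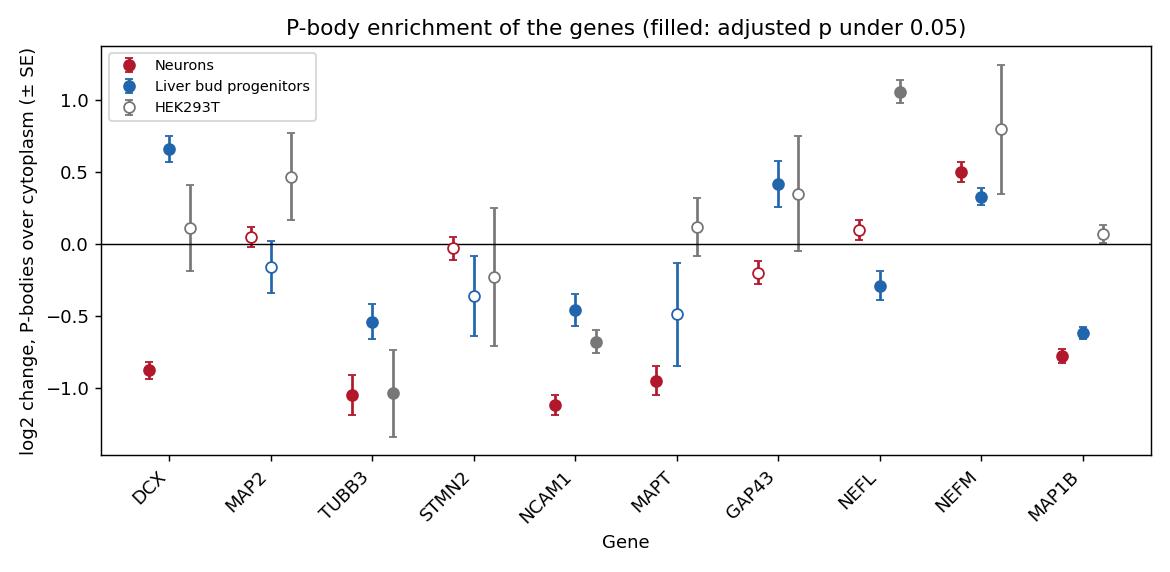
Log2 change of P-bodies over cytoplasm with SE for the 10 genes in neurons, liver bud progenitors and HEK293T (2 against 2 libraries each), filled where the adjusted p was under 0.05. In neurons 5 genes lie below 0 and are filled, and NEFM is filled above 0 at 0.5, while DCX is above 0 at 0.66 in liver bud progenitors.

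Base composition moved with these values. Over genes with at least 1 CPM in neurons, the log2 change had a Spearman rho of -0.487 with G or C at wobble bases (13062 genes) and of -0.496 with the GC content of the longest transcript (14176 genes). Over the 10 genes described, rho was -0.273 with wobble bases and -0.333 with transcript GC. It was -0.745 with the GC content of the 3′ untranslated region, against -0.484 over 13027 genes. Values of this GC content run from 34.7% in NEFL and 34.8% in MAP2 to 54.3% in MAPT and 55.3% in TUBB3. In liver bud progenitors the 10 genes had a rho of -0.212 with it, and in HEK293T of -0.588. With transcript length rho in neurons was -0.309 over the 10 genes and 0.13 over 14176 genes. With the length of the 3′ untranslated region it was -0.224 and 0.207 (13062 genes). These correlations are across genes of the same libraries and are given as descriptions. MAP1B was depleted with 48% G or C at wobble bases, and NEFL, with 77%, was not called, so that the order of the genes was not that of their wobble bases. When trends with GC and length were removed from each library, 8 genes were called depleted and 1 enriched. Of all 20451 genes then tested, 2328 were depleted and 2415 enriched. TUBB3 then had a log2 change of -0.61 and MAPT of -0.39, while DCX was at -1.24 and NEFM at 0.73. MAP2, at -0.29, STMN2, at -0.48, and GAP43, at -0.32, became called.

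In liver bud progenitors all 10 genes were below their neuronal levels, and 4 were depleted, 3 enriched and 3 not called. Of all 21951 genes tested, 17.1% were depleted and 21.4% enriched, and in 65% the fractions did not overlap, as was so for all 10 genes described. Calls over all genes were 4708 higher and 3747 lower, and 3822 higher and 4850 lower with library size only. MAP1B was depleted, from 2900 and 2970 CPM in cytoplasm to 1670 and 1680 CPM in P-bodies, a log2 change of -0.62 (SE 0.04, adjusted p = 4.46e-22). TUBB3, at -0.54, NCAM1, at -0.46, and NEFL, at -0.29, were also depleted, although TUBB3 was at -0.05 and not called once GC and length trends were removed. DCX went the other way than in neurons, with 87.7 and 88.8 CPM in P-bodies and 59.1 and 68.1 CPM in cytoplasm, a log2 change of 0.66 (SE 0.09, adjusted p = 3.29e-09). NEFM rose by 0.33, from 301 and 345 CPM in cytoplasm to 350 and 364 CPM in P-bodies. It kept its call in 12 of 13 alternatives, with a lowest value of 0.14. GAP43 was called at 0.42 (SE 0.16, adjusted p = 0.0308), with 21.4 and 22.2 CPM against 16.5 and 20.7 CPM. GAP43 kept its call in 5 of 13 alternatives, and lost it without the second cytoplasm library, at 0.23, and without the first or second P-body library, at 0.39 and 0.45. NEFL likewise lost its call without the first, at -0.29, or second P-body library, at -0.3. MAP2, STMN2 and MAPT were not called, with 26 to 37 counts of MAPT in each library.

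In HEK293T 7 of the genes stayed under 10 CPM in every library. Of the 10, 2 were depleted, 1 enriched and 7 not called. Over 21903 genes 22.8% were depleted and 19.3% enriched, and the fractions did not overlap in 64.9%, against 6 of the 10 genes. NCAM1 fell from 121 and 129 CPM in cytoplasm to 68.6 and 73.6 CPM in P-bodies, a log2 change of -0.68 (SE 0.08, adjusted p = 1.5e-11). TUBB3 was depleted at -1.04 (SE 0.3, adjusted p = 0.00305) on 33 to 56 counts per library. It kept its call in 11 of 13 alternatives, with values from -1.17 to -0.67, and DESeq2 did not call it at -0.95. NEFL was enriched, with 126 and 141 CPM in P-bodies and 68 and 71.8 CPM in cytoplasm, a log2 change of 1.06 (SE 0.08, adjusted p = 1.12e-18). MAP1B, at 303 and 312 CPM in P-bodies and 313 and 330 CPM in cytoplasm, had a log2 change of 0.07 (95% interval -0.05 to 0.18). Its call went both ways with the processing: MAP1B was called enriched with DESeq2 and RLE, at 0.16, and with all 12 libraries, at 0.19, and depleted with GC and length trends removed, at -0.24. For MAP2 the first cytoplasm library held 20 counts and the second 80, and the log2 change of 0.47 turned to -0.2 without the first and to 1.85 without the second.

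The difference in P-body enrichment between cell types was tested as an interaction. Between neurons and liver bud progenitors it was called for 4 genes, 3 lower and 1 higher in neurons, against 8.5% and 9.21% of all genes. DCX differed by -1.55 on the log2 scale (SE 0.09, adjusted p = 5.48e-08), NCAM1 by -0.67 (SE 0.11, adjusted p = 0.000497) and GAP43 by -0.63 (SE 0.14, adjusted p = 0.00492). NEFL differed by 0.39 (SE 0.1, adjusted p = 0.0106), but it lost the call in 5 of the 8 fits that left out a library, at 0.26 without the first neuron P-body library, 0.31 and 0.3 without the first and second neuron cytoplasm libraries, and 0.37 without the first liver bud P-body or the second liver bud cytoplasm library. GAP43 lost its call without the second liver bud cytoplasm library, at -0.48. With library size only, where the median of all genes moved by 0.35 and the calls from 2050 higher and 1892 lower to 3520 and 940, NCAM1, at -0.31, and GAP43, at -0.28, were not called. For MAP2 the difference was 0.2 (95% interval -0.11 to 0.51) and for TUBB3 -0.51 (95% interval -0.95 to -0.08, adjusted p = 0.1). TUBB3 became called without the first neuron P-body library, at -0.89, the second, at -0.4, or the second neuron cytoplasm library, at -0.72. MAP1B, at -0.16 (adjusted p = 0.0907), became called without either neuron P-body library, at -0.25 and -0.29, or the first neuron cytoplasm library, at -0.25.

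Against HEK293T, 5 genes were lower in P-body enrichment in neurons and 0 were called higher by edgeR, by its unadjusted p or by DESeq2. The background was 6.19% lower and 6.35% higher. MAPT differed by -1.21, DCX by -1.12, NEFL by -1.1, MAP1B by -0.99 and NCAM1 by -0.58, with adjusted p from 1.55e-07 to 0.0007. MAP2, at -0.57 (adjusted p = 0.362), was called at -1.92 without the second HEK293T cytoplasm library. Under library size only the median of all genes moved by 0.43 and the calls from 1414 higher and 1379 lower to 3328 and 446, and NCAM1, at -0.15, was not called. Both differences use the same neuron libraries and are not independent of each other.

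The related genes of 5 lists, which cover the cytoskeleton, the neurite membrane and cell adhesion, show how their levels compared between the fractions in neurons. Of 72 measured genes outside the 10, 44 were depleted, 8 enriched and 20 not called, with a median log2 change of -0.64. The depleted share was 61.1% and the enriched share 11.1%, and 60 of the 72 had a mean of 20 CPM or more, where 37.1% of all genes were depleted and 31.4% enriched. Of the 11 tubulins, 10 were depleted and 0 enriched by edgeR, also at an unadjusted p under 0.05, with a median of -0.85. TUBB4A stood at 158 and 182 CPM in P-bodies and 315 and 342 CPM in cytoplasm, a log2 change of -1.12, and TUBB2A at 144 and 167 CPM against 278 and 290 CPM, a change of -1.03. Both are beta-tubulins, as is TUBB3. The exception, TUBA4A, was at 2.04 CPM in P-bodies and 0.677 CPM in cytoplasm.

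Among 32 microtubule-associated and tubulin-binding genes, 18 were depleted and 6 enriched, with a median of -0.59. The depleted share was 56.2%, against 14.1% of all genes and 37.1% of those at 20 CPM or more. The enriched share, 18.8%, was near the 14.6% of all genes and below the 31.4% at 20 CPM or more. DPYSL4, of the collapsin response mediator family, was depleted by -1.41 (SE 0.12, adjusted p = 1.7e-06), and STMN3, a relative of STMN2, by -1.29 (SE 0.22, adjusted p = 0.000654). MAP9, a microtubule-associated protein of the spindle, was enriched by 1.48, from 10.5 and 13.3 CPM in cytoplasm to 36.3 and 38.1 CPM in P-bodies. TTLL7, which adds glutamate chains to tubulin, was enriched by 1.16 (SE 0.13, adjusted p = 2.37e-05).

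The list of 14 growth cone and neurite membrane genes held 9 depleted and 0 enriched genes by edgeR (1 at an unadjusted p under 0.05), with a median of -0.61. Its depleted share was 64.3%, against 14.1% of all genes and 37.1% of those at 20 CPM or more. FSCN1, an actin-bundling protein, was at 67.6 and 71.9 CPM in P-bodies and 156 and 173 CPM in cytoplasm, a log2 change of -1.4. RTN1, a reticulon of the endoplasmic reticulum, changed by -0.82. Of the 10 adhesion genes 5 were depleted and 1 enriched, with a median of -0.53. Their depleted share, 50%, was closer to the 37.1% at 20 CPM or more than to the 14.1% of all genes. CNTN2 changed by -1.05 and NFASC by -0.97, both immunoglobulin family members like NCAM1, while NRCAM, of the same family, was enriched by 0.36 (SE 0.08, adjusted p = 0.00434). Among 5 intermediate filament genes, 2 were depleted, 1 enriched and 2 not called, with a median of -0.22. NES, a filament protein of neural progenitors, changed by -0.88 and INA, a neuronal one, by -0.67. NEFH, the heavy neurofilament subunit, was enriched by 1.97 (SE 0.32) at 18.2 CPM in P-bodies and 4.14 CPM in cytoplasm, and is named here after its value was seen.

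**Figure D4:**
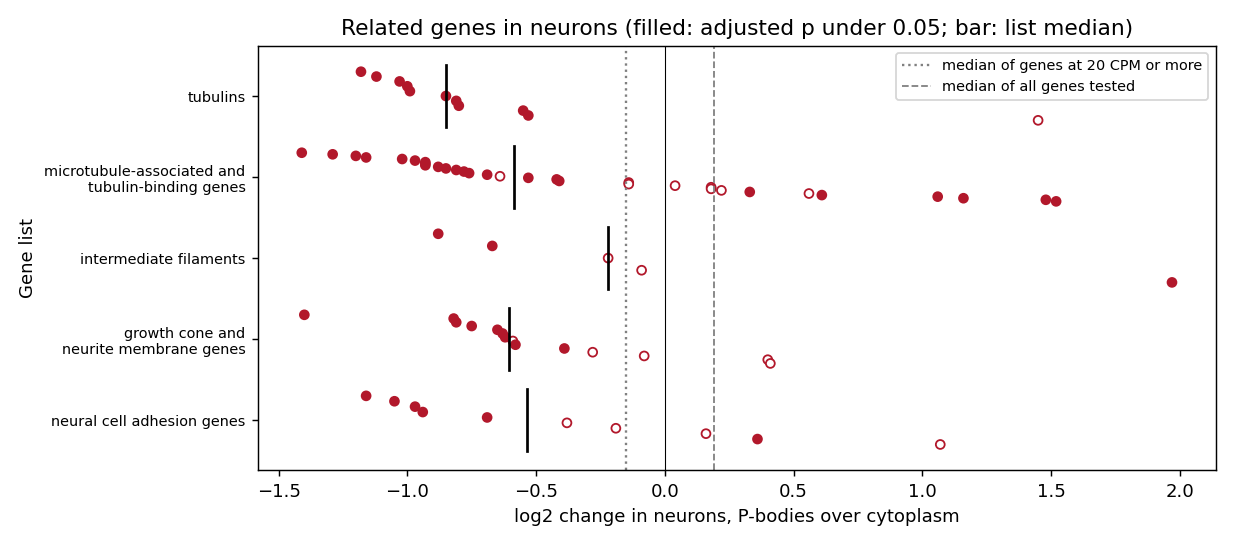
Log2 change of P-bodies over cytoplasm in neurons for each gene of 5 related lists, filled where the adjusted p was under 0.05, with black bars at list medians and a dashed line at the median of all genes tested, 0.19, and a dotted line at that of genes at 20 CPM or more, -0.15. Tubulins lie between -1.18 and -0.53 apart from TUBA4A at 1.45, which is open and near the floor.

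The same genes were counted in the other cells. In liver bud progenitors 27 of the 72 were depleted and 18 enriched (median -0.2), or 37.5% and 25% against 17.1% and 21.4% of all genes. In HEK293T 31 were depleted and 14 enriched (median -0.36), or 43.1% and 19.4% against 22.8% and 19.3%. Of genes with a mean of 20 CPM or more, 27.7% were depleted and 53.1% enriched in liver bud progenitors, and 34.2% and 50.7% in HEK293T. Of the 72, only 47 reached that mean in liver bud progenitors and 36 in HEK293T. The shares of the 72 and of genes at 20 CPM or more are therefore not like for like. In HEK293T all 11 tubulins were depleted, with a median of -1.33, and in liver bud progenitors 6 were depleted and 2 enriched, with a median of -0.3.

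Over the 12 human libraries the genes whose log2 CPM was most like the mean of the 10 were ANK2, with a Pearson r of 0.998, SYT11 (0.997) and SRRM4 (0.997), of 6911 genes that averaged 20 CPM or more. ANK2 was at 2320 CPM in neuron cytoplasm, 188 CPM in liver bud progenitor cytoplasm and 62.6 CPM in HEK293T cytoplasm. Each member was also compared with the mean of the other 9. STMN2 was most alike, with r of 0.993, and NEFM least, with r of 0.829. The 12 libraries fall into 3 cell types, so that these values mainly describe the difference between cell types.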

How the data were processed

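Reads were counted per gene symbol by the authors, who deposited whole-number counts (22286 human genes, hg38, refGene symbols) with genes under 10 counts in total removed. Per the study's methods, snapTotal-seq reads went through nf-core and salmon and Smart-seq reads through hisat2 and featureCounts, and which of these made each column is not given in the sources used here. Tables of the authors' DESeq2 fold changes and p-values, and the mouse counts, were not used.

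Fractions (7 comparisons in all, with 2 interactions) were compared on raw counts by the quasi-likelihood test of edgeR 4.0.16 (R 4.3.3) after TMM scaling, without covariates, over all genes with a count in the libraries compared. Benjamini-Hochberg adjusted p under 0.05 was called, two-sided. SEs and intervals were derived from the p-value and its degrees of freedom. Alternatives were DESeq2 1.42.0, RLE, library size only, filterByExpr, all 12 libraries, no ribosomal RNA genes, the replicate block, GC and length trends removed (splines with 5 degrees of freedom), and each library left out.

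Total counts ranged from 6368953 to 17972284, and floors cover counting error only. Replicate counts differed by a chi-square of 24.83 per gene in neuron P-bodies and of 3.57 to 6.69 in the other groups. All were above sampling noise, so that none was treated as a duplicate. Lengths and GC came from GENCODE 44. From each list, the 2 most enriched and 2 most depleted genes called in neurons with a mean of at least 20 CPM were named. The rule for the 10 genes uses no measured value, but the genes and all lists were chosen with earlier results of these data known.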

Additional observations from a re-analysis of the deposited data

Results flagged for a closer look

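The P-body enrichment of 4 of the 10 genes differed between neurons and liver bud progenitors by the edgeR interaction test (neurons minus liver bud progenitors, log2): DCX by -1.55, NCAM1 by -0.67, GAP43 by -0.63 and NEFL by 0.39. Of all genes, 8.5% were called lower and 9.21% higher. NCAM1 and GAP43 lost their calls with library size only, and NEFL and GAP43 in fits that left out a library, while DCX kept its call throughout. DCX was depleted in neurons, at -0.88, and enriched in liver bud progenitors, at 0.66. Between neurons and HEK293T the difference was -1.12 for DCX, -0.58 for NCAM1, -1.21 for MAPT, -1.1 for NEFL and -0.99 for MAP1B. Of all genes, 6.19% were called lower and 6.35% higher there, and NCAM1 lost its call with library size only. RNA kit and cell type cannot be told apart in the second set.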

How the results depend on the processing

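Of 990 values of single genes under the alternatives, 873 kept their direction and their side of the threshold, 48 became called in the same direction, 26 lost the call and 43 changed sign, of which 4 were called after the change and 0 belonged to a difference that was called as reported. All 10 genes stayed higher in neurons than in liver bud progenitors under every alternative run, in both fractions. In neurons DCX, TUBB3, NCAM1, MAPT, MAP1B and NEFM kept their calls in all 13 alternatives. The cause of the changes below was not tested.

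In neurons 2 genes were called enriched with library size only and with filterByExpr, and 8 depleted with GC and length trends removed, with or without the block. Over all genes, 3839 of 22093 were enriched with library size only and 3577 of 15030 with filterByExpr. Depleted were 2328 of 20451 with trends removed and 2743 of 20451 with the block added. In liver bud progenitors 1 was enriched with library size only, against 3822 of all 21951 genes. In HEK293T 2 were enriched with DESeq2, RLE, the replicate block or trends removed, and 3 with all 12 libraries or with block and trends together. With DESeq2 1 was depleted, against 3803 of all 21903 genes. Of these, 4024 were enriched with DESeq2, 4572 with RLE, 4157 with the block and 4034 with all 12 libraries. Of 20270 genes, 3316 were enriched with trends removed and 3357 with the block added. For neurons minus liver bud progenitors, 4 were higher and 1 lower with library size only, against 3520 and 940 of all 22268 genes. With filterByExpr or with block and trends together 2 were higher, against 2601 of 16619 and 1911 of 20596 genes. With all 12 libraries, the replicate block, trends removed, or block and trends together 5 were lower. Over all genes, 2786 of 22268 were lower with all 12 libraries and 2334 with the block. Of 20596 genes, 2339 were lower with trends removed and 2612 with the block added.

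Values that changed sign in neurons were those of MAP2, at -0.07 with all 12 libraries and -0.29 with trends removed, with or without the block, of STMN2, at 0.02 with DESeq2 and RLE, 0.13 with library size only and 0.07 with filterByExpr, and of NEFL, at -0.01 with all 12 libraries and -0.05 with trends removed, with or without the block. In liver bud progenitors MAPT was at 0.16 with trends removed and 0.17 with the block added. In HEK293T DCX was at -0.02 with library size only, -0.33 with trends removed and -0.32 with the block added, MAPT at -0.01 with library size only, and MAP1B at -0.06 with library size only and -0.24 with trends removed, with or without the block. For neurons minus liver bud progenitors, MAP2 was at -0.13 with trends removed, with or without the block, and MAP1B at 0.2 with library size only. For neurons minus HEK293T, TUBB3 was at 0.29 with library size only, and STMN2 at -0.01 with DESeq2 and RLE, -0.06 with all 12 libraries, -0.08 without ribosomal RNA genes and -0.33 with trends removed, with or without the block.

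With a library left out, the lone library of a group was assumed to vary like the others. The counts of calls below are given without those of all genes, which also moved, and are not read further. Genes called enriched and depleted then numbered 1 and 5 in neurons, 2 to 3 and 3 to 4 in liver bud progenitors, and 1 to 2 and 2 in HEK293T. Genes higher and lower in enrichment numbered 0 to 1 and 2 to 5 for neurons minus liver bud progenitors, and 0 and 5 to 6 for neurons minus HEK293T. The values that changed sign with a library left out, all of them not called as reported, ranged in neurons from 0 to 0.07 for MAP2 and from -0.14 to 0.05 for STMN2, in liver bud progenitors from -0.34 to 0.01 for MAP2, and in HEK293T from -0.12 to 0.4 for DCX, -0.2 to 1.85 for MAP2 and -0.08 to 0.31 for MAPT. For neurons minus liver bud progenitors MAP2 ranged from -0.01 to 0.37, and for neurons minus HEK293T MAP2 ranged from -1.92 to 0.13, TUBB3 from -0.41 to 0.08 and STMN2 from -0.15 to 0.25. Neurons were called higher and lower in cytoplasm for 5696 and 5648 of all genes, and for 4173 and 7270 with library size only.

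The span of levels per length was 120 with the union of exons and 44.4 to 50.5 with a library left out. Without ribosomal RNA genes the summed level was 35500 CPM in neuron P-bodies, 55100 in neuron cytoplasm, 2610 and 4470 in liver bud progenitors, and 561 and 645 in HEK293T. With a library left out it was 30800 to 31300, 40900 to 43800, 2270 to 2290, 3530 to 3560, 519 to 553 and 523 to 558 CPM, in the same order. The MANE Select length was chosen after seeing the data.

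Replicate numbers in the labels name no shared preparation, and replicate differences of the fractions correlated across genes by -0.015 in neurons, -0.02 in liver bud progenitors and -0.008 in HEK293T, so the replicate block was not taken as a pairing. With it, 6 genes were depleted and 1 enriched in neurons, against 3601 and 3353 of all 22093 genes tested. Counts were low in HEK293T, where DCX, TUBB3, STMN2, GAP43 and NEFM had 12 to 57 counts per library and MAP2 had 20 in the first cytoplasm library.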
